A study of Mus musculus with 31 samples.

Results

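DNA replication genes encode the machinery that copies the genome once in each cell cycle. Before S phase, the origin recognition complex with Cdc6 and Cdt1 loads the ring-shaped MCM helicase onto origins, which is called licensing. Cdc45 and the GINS complex then complete the helicase when the origin fires, primase and polymerase alpha start the new strands, and polymerases delta and epsilon extend them on the sliding clamp PCNA. Ependymal cells of the adult spinal cord divide little at rest and are known to start dividing after injury. The genes described here are 39 members of this machinery and were taken as a list of gene names. All 39 were among the 16301 genes of the bulk RNA table and the 27998 genes of the single-cell RNA matrix.

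The members fall into 7 roles: licensing (Orc1, Orc6, Cdc6, Cdt1, Mcm2 to Mcm7), firing (Cdc45, Gins1 to Gins4, Mcm10), polymerases (Pola1, Pola2, Prim1, Prim2, Pold1, Pole, Pole2), clamp and loader (Pcna, Rfc1 to Rfc5), strand processing (Rpa1, Rpa2, Fen1, Lig1), nucleotide supply (Rrm1, Rrm2, Tyms, Tk1) and chromatin assembly (Chaf1a, Chaf1b). In the mouse genome assembly GRCm38.p6 they lie on 14 chromosomes. Of the 39 genes, 11 overlap another protein-coding gene there, among them Cdc45 with Ufd1, Chaf1a with Ubxn6, Rpa1 with Smyd4 and Tk1 with Afmid. Whether the counting used strand is not given in the sources used here, so reads in these overlaps cannot be told apart.

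The study profiled cells of mouse spinal cord from 2 genotypes on the C57BL/6 background, called Foxj1-Olig2-tdT and Foxj1-tdT in the labels. The names refer to Foxj1, a transcription factor gene of ciliated ependymal cells, to tdT, a red fluorescent reporter, and in the first genotype also to Olig2, which encodes a factor that drives the oligodendrocyte lineage. The labels name no further alleles and no inducing agent. Every bulk and single-cell RNA group carries Foxj1 and tdT in its label, while the title of the single-cell ATAC sample names neither. Bulk RNA came from about 1k flow-sorted ependymal cells per library by Smart-seq2, a full-length RNA method, with 2 libraries per genotype at each of 3 stages: uninjured, 1 dpi and 5 dpi, where dpi is read as days after injury. Single-cell RNA covered each genotype without injury and at 2 and 4 wpi (read as weeks), and single-cell ATAC covered 1 sample of non-neuronal cells from uninjured cord. Whether replicates are separate animals is not in the labels, and the p-values therefore rest on a spread between libraries that may be technical.

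Bulk values are the authors' normalised counts, which summed to between 12601290 and 13878102 per library, with 14395 to 15379 genes above 0. Olig2 read 2450.1 and 1690.3 (uninjured), 3841 and 3961 (1 dpi) and 2794 and 3793 (5 dpi) among Foxj1-Olig2-tdT libraries, against 4.5 and 4.4, 11.7 and 2.2, and 17.4 and 195 among Foxj1-tdT libraries, which followed the labels, although Foxj1-tdT 5 dpi replicate 2 was well above its partner. The Foxj1-tdT uninjured libraries were more alike (r = 0.989 across genes on the log2 scale) than the pairs of the other 5 groups (0.864 to 0.928), and results that change when they enter as 1 library are marked as such. Ependymal markers were above 0 in all 12 libraries. They took 0.0615 to 1.13% of the summed values, were highest in the uninjured libraries, and were lowest in the Foxj1-Olig2-tdT libraries at 5 dpi. Markers of endothelium, pericytes, fibroblasts, microglia and infiltrating myeloid cells (18 genes in the table) took 0.00654 to 0.114%, with the top value in Foxj1-tdT 1 dpi replicate 1. Astrocyte markers (7 genes) took 0.137 to 0.296%, and oligodendrocyte markers (7 genes in the table) took 0.0166 to 0.17%. The lowest astrocyte share and the highest oligodendrocyte share were also in Foxj1-tdT 1 dpi replicate 1. In sorted bulk samples, fewer cells of a type and less RNA per cell cannot be told apart.

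The 39 genes together took the larger share of the RNA values after injury, with a different time course in the 2 genotypes. In Foxj1-Olig2-tdT cells the uninjured libraries gave them 0.115 and 0.108% of the summed values, the 1 dpi libraries 0.249 and 0.308% and the 5 dpi libraries 0.33 and 0.299%. In Foxj1-tdT cells the uninjured libraries gave them 0.115 and 0.12%, the 1 dpi libraries 0.414 and 0.398% and the 5 dpi libraries 0.17 and 0.154%. The share was thus highest at 1 dpi in Foxj1-tdT cells and was kept to 5 dpi in Foxj1-Olig2-tdT cells, and at both times after injury the 2 genotypes did not overlap. Of the 39 members, 35 had their highest group mean at 1 dpi in Foxj1-tdT cells, 2 at 5 dpi (Pole, Rrm2) and 2 without injury (Chaf1a, Rfc1). In Foxj1-Olig2-tdT cells 21 had it at 5 dpi, 16 at 1 dpi and 2 without injury (Chaf1a, Rfc2).

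**Figure D1:**
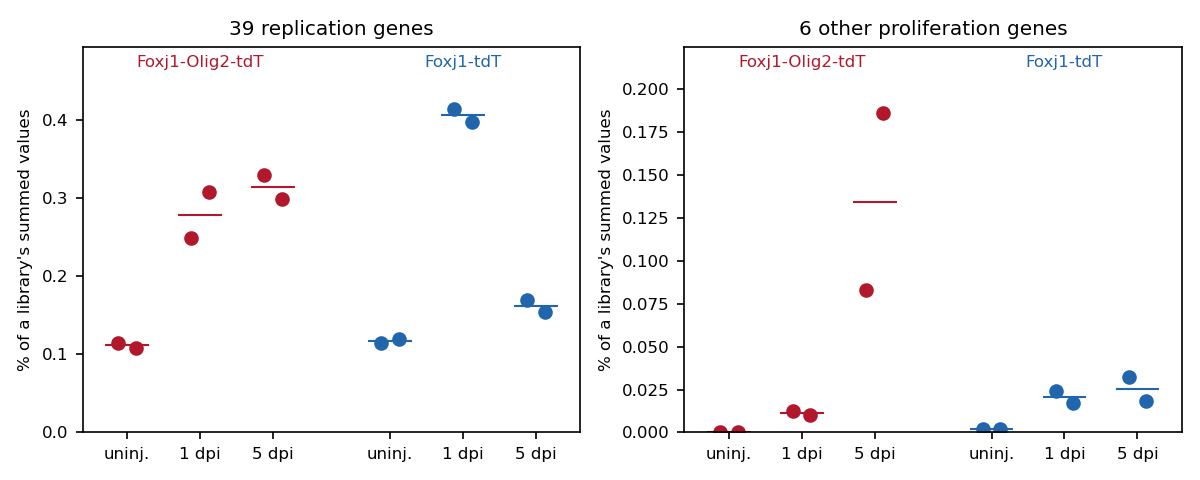
Share of each bulk library's summed normalised counts (%) taken by the 39 replication genes (left) and by 6 other proliferation genes, Mki67, Top2a, Cdk1, Ccnb1, Birc5 and Ube2c (right), in Foxj1-Olig2-tdT (red) and Foxj1-tdT (blue) cells. Points are libraries, lines the means of 2 libraries. At 5 dpi the replication genes took 0.33 and 0.299% in Foxj1-Olig2-tdT libraries and 0.17 and 0.154% in Foxj1-tdT libraries.

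Many replication genes are known targets of E2F transcription factors, which bind near gene starts, so the starts of the members were read from RefSeq (GRCm38.p6). A window of 300 bases, from 250 before to 50 after the start, was given for 32 of the 39 genes. The E2F words TTTCCCGC, TTTGGCGC, TTTCGCGC and TTTGCCGC were searched on both strands, where different words may overlap. At least 1 word stood in the windows of 13 of the 32 genes (40.6%), against 704 of all 27025 genes with a window (2.6%). The shorter word CCAAT, also on both strands, stood in 20 of the 32 (62.5%), against 41.1% of all genes. These matches describe letters and are not binding sites. The windows of 5 genes are shown because their values carry results given further on: Mcm5 and Mcm6 for the difference between genotypes, Cdc6 because it was listed at 0 in every uninjured library, Rfc3 because its words lie at the start itself, and Chaf1a because it was lower at 5 dpi in Foxj1-tdT cells. Capitals mark the E2F words, and the sequences run 5′ to 3′ on the strand of the gene.
Mcm5: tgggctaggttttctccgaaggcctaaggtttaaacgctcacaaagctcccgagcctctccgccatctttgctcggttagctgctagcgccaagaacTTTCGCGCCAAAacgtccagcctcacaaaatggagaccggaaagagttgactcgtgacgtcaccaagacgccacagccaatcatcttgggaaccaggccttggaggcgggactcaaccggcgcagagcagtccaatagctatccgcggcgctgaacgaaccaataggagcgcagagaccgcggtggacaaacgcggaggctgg
Mcm6: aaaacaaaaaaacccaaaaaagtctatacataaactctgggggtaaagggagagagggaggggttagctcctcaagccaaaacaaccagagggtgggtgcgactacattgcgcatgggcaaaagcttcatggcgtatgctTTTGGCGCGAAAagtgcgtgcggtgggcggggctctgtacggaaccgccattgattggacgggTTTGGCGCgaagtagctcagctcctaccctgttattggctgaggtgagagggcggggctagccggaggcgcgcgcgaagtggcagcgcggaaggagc
Cdc6: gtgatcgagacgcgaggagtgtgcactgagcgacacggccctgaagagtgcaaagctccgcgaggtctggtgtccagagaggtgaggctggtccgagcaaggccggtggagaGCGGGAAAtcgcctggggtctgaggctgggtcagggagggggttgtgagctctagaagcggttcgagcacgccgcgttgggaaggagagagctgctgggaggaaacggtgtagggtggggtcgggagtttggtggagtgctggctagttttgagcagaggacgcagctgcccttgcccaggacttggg
Rfc3: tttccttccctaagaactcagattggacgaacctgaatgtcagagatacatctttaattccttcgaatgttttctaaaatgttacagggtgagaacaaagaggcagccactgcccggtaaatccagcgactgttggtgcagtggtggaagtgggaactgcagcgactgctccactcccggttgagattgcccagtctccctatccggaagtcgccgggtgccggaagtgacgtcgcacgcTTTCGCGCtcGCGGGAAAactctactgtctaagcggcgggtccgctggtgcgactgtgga
Chaf1a: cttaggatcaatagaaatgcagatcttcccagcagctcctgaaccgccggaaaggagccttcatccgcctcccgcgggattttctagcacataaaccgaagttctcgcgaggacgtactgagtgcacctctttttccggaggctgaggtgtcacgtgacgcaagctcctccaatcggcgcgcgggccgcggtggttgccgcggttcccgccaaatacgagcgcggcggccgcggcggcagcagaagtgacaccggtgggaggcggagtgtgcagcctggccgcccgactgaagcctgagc
The windows lie at chr8:75109259-75109558 (+ strand) for Mcm5, chr1:128359656-128359955 (- strand) for Mcm6, chr11:98907901-98908200 (+ strand) for Cdc6, chr5:151651159-151651458 (- strand) for Rfc3 and chr17:56040166-56040465 (+ strand) for Chaf1a. With the start as position 1, the overlapping words of Mcm5 spanned positions -153 to -142 and those of Mcm6 -110 to -99, with a further word at -47 to -40. The word of Cdc6 lay at -138 to -131, and those of Rfc3 at -10 to -3 and 1 to 8. The window of Chaf1a held none of the 4 words.

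Open chromatin was measured in 1 sample of uninjured cord, so there is no comparison with injured cells. All 32 members with a RefSeq start had a peak within 1000 bases of it, and all 32 also within 250 bases, against 56.1% and 51.9% of the 27025 genes. The authors' 8 cell classes (EP1 to EP3, ACNT1, ACNT2, OPC, VEC, PER, not spelled out in the files) held cut sites at all 32 member starts, except VEC, in which Prim1 had none. Scaled to a common total (CPM) of the cut sites in peaks, the peaks at member starts held 839 in class EP1 (95% exact Poisson interval 812 to 868), 869 in EP2 (854 to 884) and 921 in EP3 (896 to 947). They held 1230 in OPC (1180 to 1270), 1480 in PER (1400 to 1560) and 1710 in VEC (1590 to 1830), while ACNT1 and ACNT2 had 1100 and 1020. Peaks at all gene starts took between 40.3% of the cut sites in EP1 and 57.4% in VEC, and the members' share of them ran from 0.208% in EP1 to 0.298% in VEC. In EP2, with a median of 46787.5 cut sites per cell, the share of cells with at least 1 cut at a member start ran from 12.8% for Prim1 to 72.4% for Mcm7. Cells are not replicates, so these intervals cover counting error only.

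Injury raised most of the members at 1 dpi in both genotypes, and at 5 dpi in Foxj1-Olig2-tdT cells. Bulk comparisons used limma on log2(value + 1) over the 15811 genes tested, a call is an adjusted p under 0.05, and log2 differences between group means (log2 fold changes) carry their SE. At 1 dpi in Foxj1-Olig2-tdT cells, 21 of the 39 rose and 0 fell, where 5.93% of all tested genes rose and 2.16% fell. At 5 dpi in Foxj1-Olig2-tdT cells 27 rose and 1 fell (Rpa1), where 17.2% of all genes rose and 14% fell. In Foxj1-tdT cells 28 rose and 0 fell at 1 dpi, where 15.4% of all genes rose and 12% fell. At 5 dpi in Foxj1-tdT cells 14 rose and 2 fell (Rpa1 and Chaf1a), where 13.8% of all genes rose and 9.21% fell. The median log2 difference of the members was 2.04 and 2.44 in Foxj1-Olig2-tdT cells at 1 and 5 dpi and 2.76 and 1.04 in Foxj1-tdT cells, against medians of 0.00 to 0.12 over all genes. Without the 3 members listed at 0 in a whole group (Cdc6, Gins3, Orc1), these medians were 1.98, 2.27, 2.71 and 0.73. Of these calls, 12 of 21 and 20 of 28 in Foxj1-Olig2-tdT cells at 1 and 5 dpi held under all 18 alternative settings and single-library omissions, and 22 of 28 and 11 of 16 in Foxj1-tdT cells. Without Foxj1-Olig2-tdT 1 dpi replicate 2 the count in that group was 13 in place of 21. Quantile normalization moved the median of all genes by -0.16 (Foxj1-Olig2-tdT) and -0.11 (Foxj1-tdT) in the comparisons of 5 dpi with no injury.

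**Figure D2:**
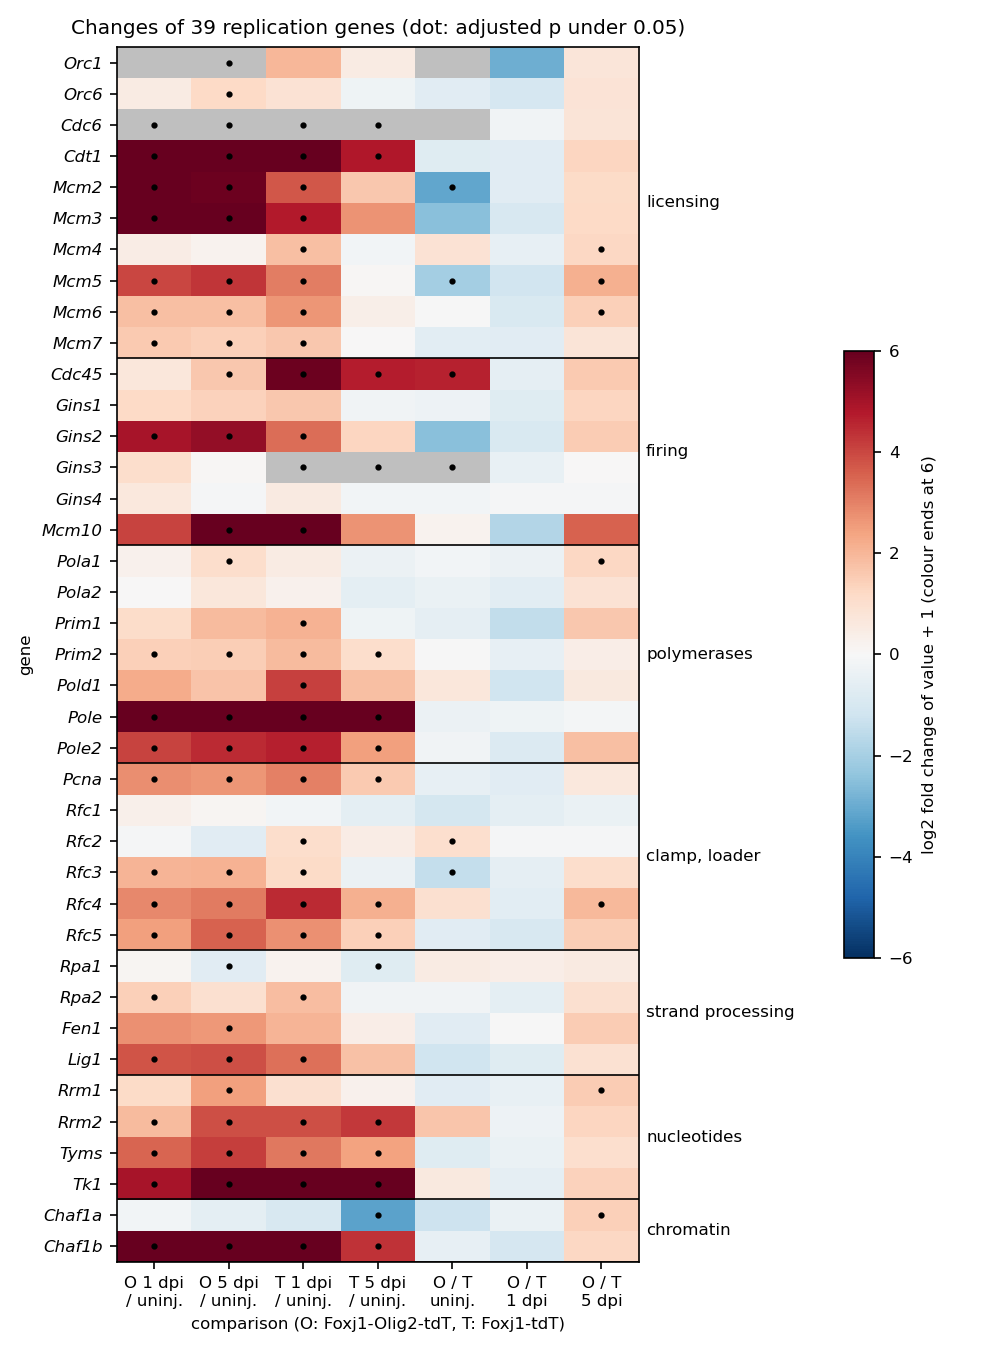
Log2 fold change of value + 1 (colour) of the 39 replication genes, by role, for injury within each genotype (first 4 columns) and for Foxj1-Olig2-tdT over Foxj1-tdT at each time (last 3 columns). Dots mark an adjusted p under 0.05 (limma), and grey cells have a group listed at 0, where no fold change is given. Of the 39 genes 27 rose at 5 dpi in Foxj1-Olig2-tdT cells and 14 in Foxj1-tdT cells.

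Licensing genes were among the clearest. Cdc6, which loads the helicase, read 0 and 0 (uninjured), 258 and 683 (1 dpi) and 437 and 225 (5 dpi) among Foxj1-Olig2-tdT libraries, against 0 and 0, 531 and 448, and 317 and 105 among Foxj1-tdT libraries. It was listed at 0 in all 4 uninjured libraries and above 100 in all 8 injured ones. It was called in Foxj1-Olig2-tdT cells with an adjusted p of 0.000213 at 1 dpi and 4.01e-05 at 5 dpi, and in Foxj1-tdT cells with 6.87e-05 and 0.000251. Mcm2, a subunit of the helicase, read 7.5 and 31.5 (uninjured), 989.5 and 1400.3 (1 dpi) and 936 and 1034 (5 dpi) among Foxj1-Olig2-tdT libraries, against 151 and 137, 1874 and 1965, and 369.7 and 539 among Foxj1-tdT libraries. Its uninjured values were lower in Foxj1-Olig2-tdT than in Foxj1-tdT libraries, its 1 dpi values were also lower, and its 5 dpi values were higher, with no overlap at any time. Mcm5, a further helicase subunit, read 46.1 and 39.4 (uninjured), 481 and 1011 (1 dpi) and 989 and 724 (5 dpi) among Foxj1-Olig2-tdT libraries, against 191 and 173, 1455 and 1607, and 271 and 136 among Foxj1-tdT libraries. In Foxj1-Olig2-tdT cells it was above every uninjured value at both times (log2 difference 4.28 ± 0.43, adjusted p = 6.25e-05 at 5 dpi), while in Foxj1-tdT cells it rose at 1 dpi (log2 difference 3.07 ± 0.43, adjusted p = 0.000796) and its 5 dpi values lay on both sides of the uninjured ones (log2 difference 0.08 ± 0.43, adjusted p = 0.929).

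Mcm4, Mcm6 and Mcm7 are the other helicase subunits given in full. Mcm6 read 1161 and 660.4 (uninjured), 2665 and 3485 (1 dpi) and 3343 and 2806 (5 dpi) among Foxj1-Olig2-tdT libraries, against 923 and 876, 4941 and 6564, and 1515 and 847 among Foxj1-tdT libraries. Mcm7 read 604 and 417 (uninjured), 1347 and 1647 (1 dpi) and 1279 and 1421 (5 dpi) among Foxj1-Olig2-tdT libraries, against 797 and 759, 2639 and 2152, and 854 and 722 among Foxj1-tdT libraries. Mcm4 read 1516 and 1605 (uninjured), 2239 and 2004 (1 dpi) and 2322 and 1395 (5 dpi) among Foxj1-Olig2-tdT libraries, against 888 and 826, 2995 and 3024, and 920.4 and 644 among Foxj1-tdT libraries. All 3 helicase subunits were highest at 1 dpi in Foxj1-tdT cells, and they were not called at 5 dpi there (log2 difference 0.33 ± 0.33, 0.01 ± 0.23 and -0.15 ± 0.25 for Mcm6, Mcm7 and Mcm4). In Foxj1-Olig2-tdT cells Mcm6 and Mcm7 rose at 5 dpi (log2 difference 1.81 ± 0.33, adjusted p = 0.00222; log2 difference 1.42 ± 0.23, adjusted p = 0.0012), and Mcm4 did not pass (log2 difference 0.21 ± 0.25, adjusted p = 0.573). Orc6, a subunit of the origin recognition complex and the licensing member with the largest p over the 6 groups, read 468 and 379.6 (uninjured), 459 and 789.6 (1 dpi) and 1308 and 734 (5 dpi) among Foxj1-Olig2-tdT libraries, against 687 and 664, 1245 and 1190.2, and 832 and 374 among Foxj1-tdT libraries. Its uninjured and 1 dpi libraries overlapped in Foxj1-Olig2-tdT cells. Of the 10 licensing genes 9 rose at 5 dpi in Foxj1-Olig2-tdT cells and 2 (Cdc6 and Cdt1, which works with Cdc6) in Foxj1-tdT cells, against 7 and 8 at 1 dpi. Over all tested genes 17.2% and 13.8% rose at 5 dpi in these genotypes, and 5.93% and 15.4% at 1 dpi. The 2 of 10 in Foxj1-tdT cells at 5 dpi were thus a share near that of all genes. Cdt1 was between 0 and 6.1 in uninjured libraries and between 105 and 869 in injured ones, Mcm3 between 0.8 and 119.6 and between 512 and 2518, and Orc1 between 0 and 21.5 and between 0.4 and 111.

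**Figure D3:**
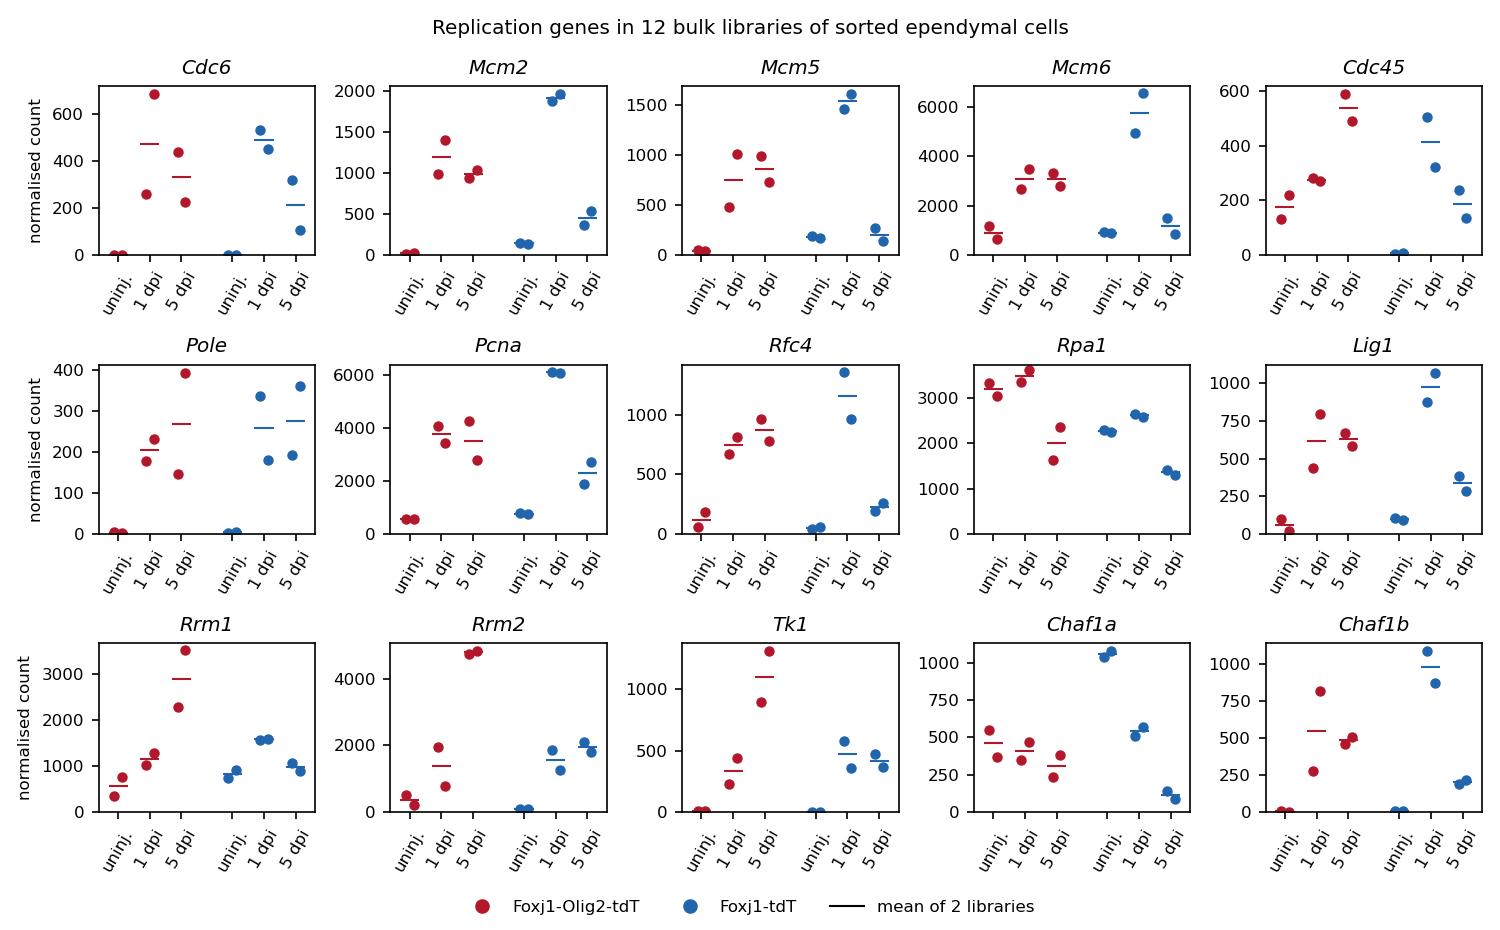
Normalised counts (linear axis from 0) of 15 replication genes in each bulk library, for Foxj1-Olig2-tdT (red, left) and Foxj1-tdT (blue, right) cells without injury, at 1 dpi and at 5 dpi. Points are libraries and lines the means of 2 libraries. At 5 dpi Mcm5 was at 989 and 724 in Foxj1-Olig2-tdT and at 271 and 136 in Foxj1-tdT libraries.

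Among the firing genes, Cdc45 and Gins3 set the genotypes apart before injury. Cdc45, which joins the helicase when an origin fires, read 134 and 219 (uninjured), 282 and 271 (1 dpi) and 589 and 489 (5 dpi) among Foxj1-Olig2-tdT libraries, against 5.1 and 6.8, 506 and 322, and 237 and 137 among Foxj1-tdT libraries. Gins3, a GINS subunit, read 66.3 and 79.8 (uninjured), 122 and 190.4 (1 dpi) and 93.6 and 62.4 (5 dpi) among Foxj1-Olig2-tdT libraries, against 0 and 0, 258 and 163, and 65.3 and 85.7 among Foxj1-tdT libraries. Both were well above their Foxj1-tdT values in uninjured Foxj1-Olig2-tdT cells (log2 difference 4.64 ± 0.47, adjusted p = 0.000692 for Cdc45; Gins3 was listed at 0 in Foxj1-tdT, adjusted p = 0.000692), and both calls held under all 18 alternatives. Ufd1, the gene that overlaps Cdc45, had a log2 difference of -0.01 ± 0.4 in that comparison. Gins2, another GINS subunit, read 8.3 and 71.4 (uninjured), 611 and 1034 (1 dpi) and 1005 and 1021 (5 dpi) among Foxj1-Olig2-tdT libraries, against 145 and 144, 1382 and 1635, and 328 and 374 among Foxj1-tdT libraries. It rose in Foxj1-Olig2-tdT cells at both times (log2 difference 4.94 ± 0.73 at 1 dpi and 5.29 ± 0.73 at 5 dpi, adjusted p = 0.00307 and 0.000457). In Foxj1-tdT cells it rose at 1 dpi (log2 difference 3.37 ± 0.73, adjusted p = 0.00802), a call lost without Foxj1-tdT uninjured replicate 1 and with that pair as 1 library (adjusted p up to 0.0501). Gins1, the firing gene with the largest p over the 6 groups, read 90.5 and 54.7 (uninjured), 88.4 and 295 (1 dpi) and 213 and 165 (5 dpi) among Foxj1-Olig2-tdT libraries, against 86.9 and 89.5, 307 and 241, and 84.3 and 67.8 among Foxj1-tdT libraries. Its Foxj1-Olig2-tdT libraries overlapped between no injury and 1 dpi, and it was not called in any of the 12 comparisons. Gins4 stayed between 554 and 1189 in all libraries, and Mcm10 was between 0 and 6.5 without injury and between 0.6 and 329 after it.

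Polymerase genes were split. Pole, the catalytic subunit of polymerase epsilon, read 3.5 and 1.1 (uninjured), 178 and 231 (1 dpi) and 144 and 392 (5 dpi) among Foxj1-Olig2-tdT libraries, against 2.4 and 3.5, 337 and 180.1, and 191 and 359 among Foxj1-tdT libraries. It was at most 3.5 in uninjured libraries and at least 144 in injured ones. It rose in all 4 injury comparisons, with log2 differences of 6.05 ± 0.75 and 6.28 ± 0.75 at 1 and 5 dpi in Foxj1-Olig2-tdT cells and 5.98 ± 0.75 and 6.07 ± 0.75 in Foxj1-tdT cells. Pole2, its accessory subunit, read 5 and 15.4 (uninjured), 104 and 266 (1 dpi) and 267 and 180.3 (5 dpi) among Foxj1-Olig2-tdT libraries, against 12 and 9.2, 292 and 291, and 92 and 41.2 among Foxj1-tdT libraries. Prim2, the large subunit of primase, read 154 and 169 (uninjured), 385 and 514 (1 dpi) and 407 and 501 (5 dpi) among Foxj1-Olig2-tdT libraries, against 169 and 160, 633 and 612, and 417 and 277 among Foxj1-tdT libraries. Both rose at both times in both genotypes, with the smallest adjusted p = 0.00144 for Pole2 at 5 dpi in Foxj1-Olig2-tdT cells. The calls at 5 dpi in Foxj1-tdT cells were close to the threshold (adjusted p = 0.0405 and 0.0396) and held under 7 and 10 of the 18 alternatives, with losses that included the omission of either Foxj1-tdT uninjured library, of Foxj1-tdT 5 dpi replicate 1 and of either Foxj1-Olig2-tdT 5 dpi library (adjusted p up to 0.196 and 0.2). The calls at 1 dpi in Foxj1-Olig2-tdT cells were lost without 1 dpi replicate 2. The subunits of polymerase alpha had smaller differences. Its catalytic subunit Pola1 read 274 and 338 (uninjured), 391 and 346 (1 dpi) and 747 and 552 (5 dpi) among Foxj1-Olig2-tdT libraries, against 334 and 354, 493 and 461, and 348 and 212 among Foxj1-tdT libraries. Its B subunit Pola2 read 666 and 787 (uninjured), 700 and 765 (1 dpi) and 1411 and 942 (5 dpi) among Foxj1-Olig2-tdT libraries, against 777 and 1183, 1149 and 1142, and 687 and 587 among Foxj1-tdT libraries. Of the 4 injury comparisons Pola1 was called in 1 (log2 difference 1.07 ± 0.32, adjusted p = 0.0272 at 5 dpi in Foxj1-Olig2-tdT cells), a call that was lost without either Foxj1-tdT uninjured library or with that pair as 1 library, without Foxj1-Olig2-tdT uninjured replicate 1 and without either Foxj1-Olig2-tdT 5 dpi library. Pola2 was called in 0 of them, with adjusted p from 0.085 to 0.996. Prim1 and Pold1, the small primase subunit and the catalytic subunit of polymerase delta, ranged from 118 to 1285 and from 40.7 to 863, both with their highest values at 1 dpi in Foxj1-tdT cells.

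The sliding clamp Pcna and the small loader subunits Rfc3, Rfc4 and Rfc5 rose at 1 dpi in both genotypes. Pcna read 539.6 and 559.8 (uninjured), 4077 and 3440.2 (1 dpi) and 4253 and 2774 (5 dpi) among Foxj1-Olig2-tdT libraries, against 782 and 741, 6109 and 6088, and 1858 and 2706 among Foxj1-tdT libraries. Its values after injury were at least 1858 and its uninjured values at most 782. At 1 dpi it was lower in Foxj1-Olig2-tdT than in Foxj1-tdT libraries, and at 5 dpi it was higher, with replicate 2 of the genotypes close to each other. Rfc4 read 53.3 and 179 (uninjured), 666 and 817 (1 dpi) and 961 and 779 (5 dpi) among Foxj1-Olig2-tdT libraries, against 42.4 and 59.4, 1355 and 964, and 194 and 259 among Foxj1-tdT libraries. Rfc5 read 86.5 and 106 (uninjured), 303 and 955 (1 dpi) and 992 and 1290 (5 dpi) among Foxj1-Olig2-tdT libraries, against 145 and 159, 1165 and 913, and 431 and 393 among Foxj1-tdT libraries. Rfc4 and Rfc5 also rose at 5 dpi in Foxj1-Olig2-tdT cells (log2 difference 3.13 ± 0.51 and 3.55 ± 0.46, adjusted p = 0.00126 and 0.000306). Rfc3 read 133 and 262 (uninjured), 629 and 947 (1 dpi) and 773 and 835 (5 dpi) among Foxj1-Olig2-tdT libraries, against 509 and 494, 891 and 1367, and 471 and 319 among Foxj1-tdT libraries. Its uninjured values were lower in Foxj1-Olig2-tdT than in Foxj1-tdT libraries. In Foxj1-Olig2-tdT cells at 1 dpi the calls of Rfc3 and Rfc4 were lost without 1 dpi replicate 2 (adjusted p = 0.0716 and 0.0539), and in Foxj1-tdT cells at 1 dpi that of Rfc3 held under 6 of the 18 alternatives and was lost without either library of the Foxj1-tdT uninjured or 1 dpi pairs (adjusted p up to 0.243). Rfc2 read 2027 and 2054 (uninjured), 1538 and 2518 (1 dpi) and 1417 and 1158 (5 dpi) among Foxj1-Olig2-tdT libraries, against 947 and 1047, 2320.2 and 1862, and 1411 and 1269 among Foxj1-tdT libraries. Uninjured Foxj1-Olig2-tdT cells lay within the range of the injured cells of both genotypes. It was not called after injury there (log2 difference -0.05 ± 0.24, adjusted p = 0.935 at 1 dpi), and it rose at 1 dpi in Foxj1-tdT cells (log2 difference 1.06 ± 0.24, adjusted p = 0.00962), a difference between genotypes that did not pass (interaction -1.11 ± 0.34, adjusted p = 0.112). Rfc1, the large subunit and the member with the largest p over the 6 groups in its role, read 1245 and 386 (uninjured), 818 and 892 (1 dpi) and 1082 and 511 (5 dpi) among Foxj1-Olig2-tdT libraries, against 1418 and 1473, 1186 and 1363, and 1006 and 947 among Foxj1-tdT libraries. The Foxj1-Olig2-tdT groups of Rfc1 overlapped, while its Foxj1-tdT values stepped down from no injury to 1 dpi to 5 dpi without overlap. Its Foxj1-Olig2-tdT values were below its Foxj1-tdT values without injury and at 1 dpi, and overlapped them at 5 dpi. Rfc1 was not called in any comparison.

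Of the strand processing genes Rpa1 fell at 5 dpi and the other 3 rose in at least 1 comparison. Rpa1, the large subunit of the single-strand binding protein, read 3344 and 3044 (uninjured), 3361 and 3627 (1 dpi) and 1636 and 2357 (5 dpi) among Foxj1-Olig2-tdT libraries, against 2286 and 2247, 2656 and 2582, and 1413 and 1299 among Foxj1-tdT libraries. It was lower at 5 dpi than without injury in Foxj1-Olig2-tdT cells (log2 difference -0.70 ± 0.18, adjusted p = 0.0146) and in Foxj1-tdT cells (log2 difference -0.74 ± 0.18, adjusted p = 0.0152), with no overlap in either. The first call was lost without Foxj1-Olig2-tdT uninjured replicate 1 or 5 dpi replicate 1, and the second without either Foxj1-tdT uninjured library, with them as 1 library, or without 5 dpi replicate 2 (values from -0.80 to -0.68; the first from -0.96 to -0.44). Smyd4, which overlaps Rpa1, was lower in Foxj1-tdT cells at 1 dpi (log2 difference -1.86 ± 0.47, adjusted p = 0.0166), where Rpa1 was not, as well as at 5 dpi (log2 difference -1.79 ± 0.47, adjusted p = 0.0228), and it did not pass at 5 dpi in Foxj1-Olig2-tdT cells (log2 difference -0.96 ± 0.47, adjusted p = 0.157). Rpa2, its partner subunit, read 517 and 342 (uninjured), 947 and 1329 (1 dpi) and 983 and 671 (5 dpi) among Foxj1-Olig2-tdT libraries, against 492 and 469, 1649 and 1762, and 565 and 312 among Foxj1-tdT libraries. Lig1, the ligase that joins the lagging strand, read 96.6 and 18.4 (uninjured), 437 and 796 (1 dpi) and 671 and 583 (5 dpi) among Foxj1-Olig2-tdT libraries, against 103 and 93.8, 878 and 1073, and 382 and 288 among Foxj1-tdT libraries. Fen1, which trims its flaps, read 295 and 25.1 (uninjured), 520.4 and 641 (1 dpi) and 458 and 609.6 (5 dpi) among Foxj1-Olig2-tdT libraries, against 132 and 148, 569.9 and 594, and 215 and 155 among Foxj1-tdT libraries. Lig1 rose at both times in Foxj1-Olig2-tdT cells (log2 difference 3.76 ± 0.64 and 3.85 ± 0.64, adjusted p = 0.00619 and 0.00134) and at 1 dpi in Foxj1-tdT cells (log2 difference 3.29 ± 0.64, adjusted p = 0.00441). The first of these calls rested on 1 dpi replicate 2 of Foxj1-Olig2-tdT, without which it was lost. Fen1 spread widely without injury in Foxj1-Olig2-tdT cells, where replicate 1 read 295 and replicate 2 read 25.1. A rise of Fen1 was called after injury in Foxj1-Olig2-tdT cells only, and no such call held under all 18 alternatives. Tmem258, which overlaps Fen1, rose at 5 dpi in Foxj1-Olig2-tdT cells (log2 difference 1.17 ± 0.17, adjusted p = 0.000577). It did not pass at 1 dpi there (log2 difference 0.28 ± 0.17, adjusted p = 0.345). In Foxj1-tdT cells Tmem258 rose at 1 and 5 dpi (log2 difference 0.82 ± 0.17 and 1.02 ± 0.17, adjusted p = 0.00603 and 0.00249).

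Of the 4 genes of nucleotide supply, 3 were called at both times in both genotypes. Rrm2, the regulated small subunit of ribonucleotide reductase, read 504 and 215 (uninjured), 1962 and 794 (1 dpi) and 4747 and 4824 (5 dpi) among Foxj1-Olig2-tdT libraries, against 105 and 101, 1879 and 1272, and 2107 and 1806 among Foxj1-tdT libraries. Tk1, the thymidine kinase of dividing cells, read 7.4 and 11.2 (uninjured), 226 and 438 (1 dpi) and 893 and 1306 (5 dpi) among Foxj1-Olig2-tdT libraries, against 5.5 and 5.9, 578 and 359.5, and 474 and 366 among Foxj1-tdT libraries. Tyms, thymidylate synthase, read 63.9 and 121 (uninjured), 976 and 1023 (1 dpi) and 1498 and 1609.5 (5 dpi) among Foxj1-Olig2-tdT libraries, against 155 and 135, 1736 and 976, and 715 and 824 among Foxj1-tdT libraries. These 3 genes rose at 5 dpi both in Foxj1-Olig2-tdT cells (log2 difference 3.86 ± 0.46, 6.74 ± 0.52 and 4.13 ± 0.35) and in Foxj1-tdT cells (4.23 ± 0.46, 5.96 ± 0.52 and 2.40 ± 0.35), and these calls held under all 18 alternatives. At 5 dpi every Foxj1-Olig2-tdT value of the 3 was above every Foxj1-tdT value, yet the 3 differences did not pass (log2 difference 1.29 ± 0.46, adjusted p = 0.115 for Rrm2, 1.37 ± 0.52, adjusted p = 0.135 for Tk1 and 1.01 ± 0.35, adjusted p = 0.112 for Tyms). At 1 dpi in Foxj1-Olig2-tdT cells the call of Rrm2 held under 11 of the 18 alternatives, and was lost without 1 dpi replicate 1, uninjured replicate 2 or either 5 dpi library of that genotype, or without either Foxj1-tdT uninjured library (adjusted p up to 0.156). Rrm1, the large subunit of the reductase, read 352 and 768 (uninjured), 1019 and 1297 (1 dpi) and 2284 and 3513 (5 dpi) among Foxj1-Olig2-tdT libraries, against 751 and 910.1, 1575 and 1599, and 1077 and 886 among Foxj1-tdT libraries. It rose at 5 dpi in Foxj1-Olig2-tdT cells (log2 difference 2.44 ± 0.35, adjusted p = 0.000546) and did not pass at 1 or 5 dpi in Foxj1-tdT cells (adjusted p = 0.072 and 0.67).

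The subunits of the chromatin assembly factor, which places histones on new DNA, moved in opposite directions in Foxj1-tdT cells at 5 dpi. Chaf1b, the middle subunit, read 12 and 2.9 (uninjured), 275 and 817 (1 dpi) and 462 and 507 (5 dpi) among Foxj1-Olig2-tdT libraries, against 9.2 and 9, 1084 and 872, and 188 and 218 among Foxj1-tdT libraries. Chaf1a, the large subunit, read 550.4 and 371 (uninjured), 349.6 and 469 (1 dpi) and 235 and 386 (5 dpi) among Foxj1-Olig2-tdT libraries, against 1035 and 1081, 510.4 and 571, and 140.3 and 90.6 among Foxj1-tdT libraries. Chaf1b was at most 12 in every uninjured library and at least 188 in every injured one. Chaf1a was highest without injury in both genotypes, and in Foxj1-tdT cells it fell at 5 dpi (log2 difference -3.22 ± 0.36, adjusted p = 0.000337), a call that held under all 18 alternatives. In Foxj1-Olig2-tdT cells it read lower at 5 dpi by a difference that did not pass (log2 difference -0.59 ± 0.36, adjusted p = 0.25), and 5 dpi replicate 2 was above uninjured replicate 2. Ubxn6, which overlaps Chaf1a, was lower at 5 dpi in Foxj1-Olig2-tdT cells (log2 difference -1.13 ± 0.35, adjusted p = 0.0315), where Chaf1a did not pass, and in Foxj1-tdT cells (log2 difference -1.07 ± 0.35, adjusted p = 0.0495).

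At 5 dpi the genotypes differed in 7 members, all higher in Foxj1-Olig2-tdT cells: Mcm4, Mcm5, Mcm6, Pola1, Rfc4, Rrm1 and Chaf1a. Over all tested genes 3.36% were higher and 5.88% lower in that comparison. The median log2 difference of the 39 members was 1.18, against 0.01 over all genes, and 35 of the 39 estimates were above 0. Mcm5 (log2 difference 2.14 ± 0.43, adjusted p = 0.0144), Mcm4 (log2 difference 1.22 ± 0.25, adjusted p = 0.0152) and Mcm6 (log2 difference 1.43 ± 0.33, adjusted p = 0.0234) are subunits of the helicase. Rrm1 (log2 difference 1.54 ± 0.35, adjusted p = 0.0234), Rfc4 (log2 difference 1.94 ± 0.51, adjusted p = 0.0432), Chaf1a (log2 difference 1.41 ± 0.36, adjusted p = 0.0386) and Pola1 (log2 difference 1.24 ± 0.32, adjusted p = 0.0388) belong to 4 other roles. Mcm4 also read higher in Foxj1-Olig2-tdT libraries without injury (1516 and 1605 against 888 and 826), a difference that was not called. Its interaction at 5 dpi against no injury was not called either. In all 7 genes both Foxj1-Olig2-tdT libraries were above both Foxj1-tdT libraries at 5 dpi. The count rested on single libraries. It was 0 when Foxj1-tdT 5 dpi replicate 2 was left out, 3 when Foxj1-Olig2-tdT 5 dpi replicate 1 was, 1 when its replicate 2 was, 4 when either Foxj1-tdT uninjured library was or both entered as 1, and 14 and 12 when Foxj1-Olig2-tdT uninjured replicate 1 and 2 were. Mcm5 had a log2 difference of 1.64 in the first of these cases (adjusted p = 0.106), 1.91 in the second (adjusted p = 0.0956) and 2.36 in the third (adjusted p = 0.0592). Foxj1-tdT 5 dpi replicate 2 was the library with 195 for Olig2, and it held the lower value of its pair for 6 of the 7 genes, all but Rfc4. The 18 markers of those 5 non-ependymal types made up 0.0808 and 0.0778% in the Foxj1-Olig2-tdT libraries and 0.0593 and 0.0483% in the Foxj1-tdT libraries, and ependymal markers took 0.0818 and 0.0615% against 0.278 and 0.329%. Astrocyte markers took 0.192 and 0.174% against 0.175 and 0.227%, and oligodendrocyte markers 0.043 and 0.0333% against 0.0214 and 0.0279%. Markers of oligodendrocyte progenitors (7 genes) took 0.0536 and 0.0376% against 0.00949 and 0.0336%. Of these, Sox10 was at 0 in both Foxj1-tdT libraries, and Gpr17 in both as well as in Foxj1-Olig2-tdT replicate 2. Pdgfra was at 0 in Foxj1-tdT replicate 1 only. Their part in the differences was not tested.

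Between 1 and 5 dpi more members fell in Foxj1-tdT cells than in Foxj1-Olig2-tdT cells, and the difference between genotypes was itself tested gene by gene. In Foxj1-Olig2-tdT cells 3 of 39 rose (Rrm1, Rrm2, Tk1) and 1 fell (Rpa1), where 5.95% of all genes rose and 7.93% fell, and the median log2 difference of the members was 0.07. In Foxj1-tdT cells 0 rose and 11 fell, where 2.74% of all genes rose and 3.11% fell, with a median of -1.51. The interaction of genotype and time, which asks whether the changes differ, was above 0 and called for 7 members (Mcm4, Mcm5, Mcm6, Mcm7, Pola2, Pcna, Rrm1) and below 0 for 0, where 3.04% and 5.27% of all genes were called. Its median was 1.80 over the 39 members and 0.03 over all genes, and 38 estimates were above 0. Mcm5 had the largest called difference (3.27 ± 0.61, adjusted p = 0.0113), and it was the only one of the 7 that held under all 18 alternatives. In it, Foxj1-Olig2-tdT cells changed by 0.28 ± 0.43 between 1 and 5 dpi and Foxj1-tdT cells by -2.99 ± 0.43 (adjusted p = 0.00748). The interaction was 2.34 ± 0.46, adjusted p = 0.0137 for Mcm6, 1.73 ± 0.36, adjusted p = 0.017 for Mcm4 and 1.46 ± 0.33, adjusted p = 0.0245 for Mcm7. It was 2 ± 0.49, adjusted p = 0.0351 for Rrm1, 1.51 ± 0.38, adjusted p = 0.0384 for Pola2 and 1.32 ± 0.33, adjusted p = 0.0375 for Pcna. Rrm1 rose in Foxj1-Olig2-tdT cells (log2 difference 1.30 ± 0.35, adjusted p = 0.0342), whereas Mcm4, Mcm5, Mcm6, Mcm7 and Pcna fell in Foxj1-tdT cells, and those 5 falls held under all 18 alternatives.

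**Figure D4:**
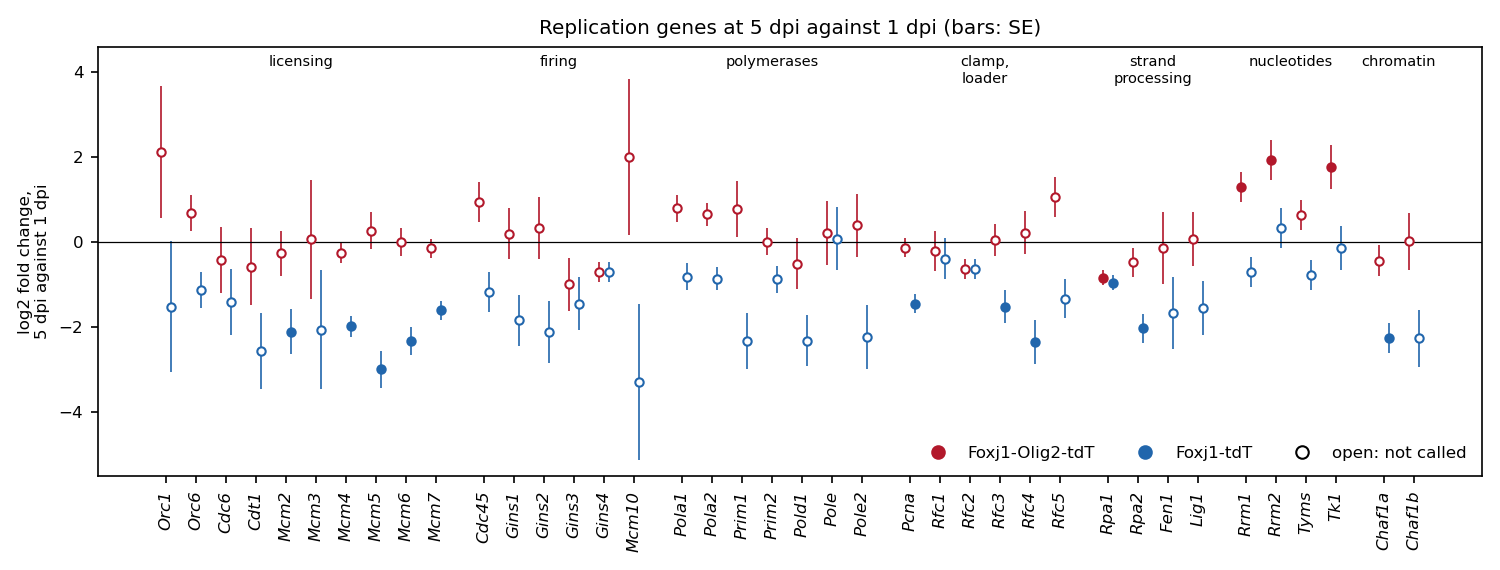
Log2 fold change of each replication gene at 5 dpi against 1 dpi in Foxj1-Olig2-tdT (red) and Foxj1-tdT (blue) cells, by role, with SE bars. Filled points passed an adjusted p of 0.05 (limma). In Foxj1-tdT cells 11 genes were called below 0, and in Foxj1-Olig2-tdT cells 3 were called above 0 and 1 below.

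These counts also moved with single libraries. In Foxj1-tdT cells the 11 falls became 7 and 6 without 1 dpi replicate 1 and 2, 5 without 5 dpi replicate 2, and 19 without either Foxj1-Olig2-tdT uninjured library. In Foxj1-Olig2-tdT cells the 4 calls became 0 and 1 without 5 dpi replicate 1 and 2, and 2 without either Foxj1-tdT uninjured library or with that pair as 1 library. The 7 interactions became 2 on omission of replicate 2 of Foxj1-tdT or replicate 1 of Foxj1-Olig2-tdT at 1 dpi. They became 3 on omission of replicate 1 at 1 dpi or replicate 2 at 5 dpi of Foxj1-tdT, of replicate 1 at 5 dpi of Foxj1-Olig2-tdT, or of either Foxj1-tdT uninjured library, and 3 with that pair as 1 library. They became 14 and 15 on omission of uninjured replicate 1 and 2 of Foxj1-Olig2-tdT. The interaction of Mcm5 stayed between 2.73 and 3.8 over the alternatives.

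Against the uninjured cells, the response at 5 dpi also differed between genotypes. The interaction was called above 0 for 7 members (Mcm2, Mcm5, Mcm7, Gins2, Rfc3, Rrm1, Chaf1a) and below 0 for 2 (Cdc45, Gins3), where 2.64% and 4.64% of all genes were called. The 2 of 39 members below 0 were thus a share near that of all genes. Mcm2 and Mcm5 had values of 4.26 ± 0.75, adjusted p = 0.0106 and 4.20 ± 0.61, adjusted p = 0.00525. Both had lower uninjured and higher 5 dpi values in Foxj1-Olig2-tdT cells. Gins2 (4.01 ± 1.04, adjusted p = 0.0457), Chaf1a (2.63 ± 0.51, adjusted p = 0.0152), Rfc3 (2.47 ± 0.54, adjusted p = 0.0242), Rrm1 (2.20 ± 0.49, adjusted p = 0.0268) and Mcm7 (1.41 ± 0.33, adjusted p = 0.0306) followed. Cdc45 went the other way (-3.07 ± 0.67, adjusted p = 0.0245), as did Gins3 (adjusted p = 0.00521), and both were near or at 0 in uninjured Foxj1-tdT cells. At 1 dpi the same 2 genes were called below 0, Cdc45 at -5.19 ± 0.67, adjusted p = 0.00697 and Gins3 with adjusted p = 0.00818, and 0 members above 0, where 1.85% and 0.923% of all genes were called. With the Foxj1-tdT uninjured pair as 1 library, 2 of the 9 calls at 5 dpi held, Mcm5 and Gins3. Omitting 1 library gave counts at 5 dpi of 2 and 3 (Foxj1-tdT uninjured replicate 1 and 2), 5 (Foxj1-tdT 5 dpi replicate 2), and 5 and 3 (Foxj1-Olig2-tdT 5 dpi replicate 1 and 2). At 1 dpi it gave 4 and 6 (Foxj1-Olig2-tdT uninjured replicate 1 and 2).

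Before injury, 3 members were higher in Foxj1-Olig2-tdT cells (Cdc45, Gins3 and Rfc2) and 3 lower (Mcm2, Mcm5 and Rfc3), where 4.72% and 3.07% of all genes were called. Rfc2 was higher by 1.03 ± 0.24, adjusted p = 0.029. Mcm2 (log2 difference -3.12 ± 0.53, adjusted p = 0.00702), Mcm5 (log2 difference -2.06 ± 0.43, adjusted p = 0.0199) and Rfc3 (log2 difference -1.42 ± 0.38, adjusted p = 0.0499) were lower. With the Foxj1-tdT pair as 1 library, or without either of its libraries, 2 calls were left, Cdc45 and Gins3. Over the 39 members the median was -0.40, against 0.00 over all genes. At 1 dpi limma called 0 of the 39 members, where 1.29% of all genes were higher and 0.55% lower. At that time 38 of the 39 estimates were below 0, with a median of -0.63 against -0.02 over all genes, and 8 members had an unadjusted p under 0.05. Without Foxj1-Olig2-tdT 1 dpi replicate 2 the count was 1. Foxj1-tdT 1 dpi replicate 1 had 0.114% of its values in the 18 markers of 5 other cell types, against 0.00654% in replicate 2. Oligodendrocyte markers took 0.17% in replicate 1 and 0.0166% in replicate 2. The members' share was 0.414 and 0.398% in these libraries, and the part of other cell types in it was not tested.

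Proliferation genes outside the replication machinery were also followed in time. Mki67, a marker of dividing cells, read 1.1 and 0 (uninjured), 396 and 163 (1 dpi) and 1612 and 2869.9 (5 dpi) among Foxj1-Olig2-tdT libraries, against 1.1 and 0.9, 923 and 349.5, and 884 and 319 among Foxj1-tdT libraries. Top2a, the topoisomerase of mitosis, read 27.5 and 7.6 (uninjured), 347 and 735 (1 dpi) and 1339 and 3182 (5 dpi) among Foxj1-Olig2-tdT libraries, against 168 and 175, 859 and 710, and 884 and 909.7 among Foxj1-tdT libraries. In Foxj1-tdT cells Mki67, Top2a, Cdk1, Ccnb1, Birc5 and Ube2c were not called between 5 and 1 dpi in either direction, with a median log2 difference of 0.08, where the replication genes had -1.51. In Foxj1-Olig2-tdT cells all 6 rose, with a median of 3.74, where the replication genes had 0.07. Over all tested genes 5.95% rose and 7.93% fell there, against 2.74% and 3.11% in Foxj1-tdT cells. At 5 dpi 0 of the 6 passed between genotypes (median 2.54), where 3.36% of all genes were higher and 5.88% lower. Whether these calls hold under the alternatives was not examined.

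Other genes of the pathway were counted in 5 lists of textbook members that hold none of the 39. Of 17 E2F and S phase control genes 13 rose and 1 fell at 5 dpi in Foxj1-Olig2-tdT cells, and 6 rose in Foxj1-tdT cells, against 8 with 1 fall and 7 at 1 dpi. Over all tested genes 17.2% rose and 14% fell at 5 dpi in Foxj1-Olig2-tdT cells, and 13.8% rose in Foxj1-tdT cells. At 1 dpi 5.93% rose and 2.16% fell in Foxj1-Olig2-tdT cells, and 15.4% rose in Foxj1-tdT cells. E2f3, an activator of replication genes, read 0 and 0 (uninjured), 106 and 123 (1 dpi) and 113 and 187 (5 dpi) among Foxj1-Olig2-tdT libraries, against 61 and 88.5, 139.6 and 142, and 33.6 and 38.6 among Foxj1-tdT libraries. Myc, a transcription factor of growth, read 46.8 and 1.9 (uninjured), 658 and 696 (1 dpi) and 1037 and 837 (5 dpi) among Foxj1-Olig2-tdT libraries, against 2.1 and 0, 714 and 1728, and 1128 and 593 among Foxj1-tdT libraries. Ccne1, the cyclin of S phase entry, read 3 and 0 (uninjured), 172 and 74.3 (1 dpi) and 165 and 109.9 (5 dpi) among Foxj1-Olig2-tdT libraries, against 0 and 3.1, 287 and 230.1, and 65.4 and 75.7 among Foxj1-tdT libraries. E2f3 was listed at 0 in both uninjured Foxj1-Olig2-tdT libraries and called lower there (adjusted p = 0.000692), as was E2f1 (log2 difference -4.20 ± 0.76, adjusted p = 0.00988). At 5 dpi 1 gene of the list was higher in Foxj1-Olig2-tdT cells, Tfdp1, the partner of E2F proteins (2339 and 2218 among Foxj1-Olig2-tdT libraries and 1019.8 and 753 among Foxj1-tdT libraries; log2 difference 1.38 ± 0.29, adjusted p = 0.0177). E2f1 and Tfdp1 were named after their values were seen. Between genotypes at 5 dpi 3.36% of all tested genes were higher in Foxj1-Olig2-tdT cells and 5.88% lower. The 1 higher gene among these 17, and the 1 among the 20 fork proteins given next, were thus shares near that of all genes. Of 20 other fork proteins 9 rose and 1 fell at 5 dpi in Foxj1-Olig2-tdT cells and 4 rose in Foxj1-tdT cells, against 4 and 11 rises at 1 dpi. The 4 rises in Foxj1-tdT cells at 5 dpi were a share near the 13.8% of all genes. Pold4, the small subunit of polymerase delta, read 1.1 and 7 (uninjured), 637 and 279 (1 dpi) and 135 and 188 (5 dpi) among Foxj1-Olig2-tdT libraries, against 0 and 0, 792 and 776, and 71.6 and 24.1 among Foxj1-tdT libraries. It was higher at 1 dpi than at 5 dpi in both genotypes, and the fall between those times passed in Foxj1-tdT cells. Clspn, a fork checkpoint gene, read 15 and 5.3 (uninjured), 113 and 229 (1 dpi) and 182 and 162 (5 dpi) among Foxj1-Olig2-tdT libraries, against 0 and 0.7, 329 and 176, and 154 and 58.5 among Foxj1-tdT libraries. Pold2, a further subunit of polymerase delta, read 502 and 479 (uninjured), 781 and 981 (1 dpi) and 701 and 673 (5 dpi) among Foxj1-Olig2-tdT libraries, against 408 and 444, 1282 and 1153, and 249 and 306 among Foxj1-tdT libraries, and it was the 1 gene of this list called higher in Foxj1-Olig2-tdT cells at 5 dpi (log2 difference 1.31 ± 0.23, adjusted p = 0.00667).

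Of 13 other genes of nucleotide synthesis, 7 rose at 5 dpi in Foxj1-Olig2-tdT cells and 4 in Foxj1-tdT cells, where 1 fell, against 5 and 10 at 1 dpi. Dut, which keeps uracil out of DNA, read 114 and 152 (uninjured), 618 and 785 (1 dpi) and 1222 and 1031 (5 dpi) among Foxj1-Olig2-tdT libraries, against 267 and 266, 1519 and 1509, and 628 and 476 among Foxj1-tdT libraries. It was called higher in Foxj1-Olig2-tdT cells at 5 dpi (log2 difference 1.04 ± 0.26, adjusted p = 0.038) and lower without injury (log2 difference -1.01 ± 0.26, adjusted p = 0.0467). Shmt1, a folate enzyme, read 4 and 7.5 (uninjured), 145 and 357 (1 dpi) and 187 and 221 (5 dpi) among Foxj1-Olig2-tdT libraries, against 51.9 and 39.7, 459 and 831, and 59.3 and 159 among Foxj1-tdT libraries. It rose in Foxj1-tdT cells at 1 dpi and in Foxj1-Olig2-tdT cells at both times. Of 11 other genes of chromatin replication 7 rose at 5 dpi in Foxj1-Olig2-tdT cells and 2 in Foxj1-tdT cells, against 6 in each genotype at 1 dpi. Uhrf1, which brings the maintenance methyltransferase to new DNA, read 309 and 151 (uninjured), 864 and 1349.9 (1 dpi) and 925 and 1238 (5 dpi) among Foxj1-Olig2-tdT libraries, against 201 and 228, 2267 and 1568, and 287 and 345 among Foxj1-tdT libraries, and its 5 dpi values did not overlap between genotypes (log2 difference 1.76 ± 0.38, adjusted p = 0.019). Dnmt1, that methyltransferase, read 161 and 128 (uninjured), 384 and 625 (1 dpi) and 802 and 646 (5 dpi) among Foxj1-Olig2-tdT libraries, against 270.3 and 232, 982 and 941, and 629 and 569 among Foxj1-tdT libraries. Hat1, a histone acetyltransferase, read 951 and 1567 (uninjured), 2086 and 2559.6 (1 dpi) and 2328 and 1708 (5 dpi) among Foxj1-Olig2-tdT libraries, against 868 and 773, 3087 and 3222, and 959.5 and 1194 among Foxj1-tdT libraries. Of 15 other licensing and firing genes 5 rose and 1 fell at 5 dpi in Foxj1-Olig2-tdT cells, and 2 rose and 2 fell in Foxj1-tdT cells, against 2 rises in each at 1 dpi. Gmnn, the inhibitor of Cdt1, read 0 and 28.1 (uninjured), 185 and 627 (1 dpi) and 767 and 759.6 (5 dpi) among Foxj1-Olig2-tdT libraries, against 0 and 1.2, 721 and 809, and 374 and 216 among Foxj1-tdT libraries. Mcm8, a relative of the helicase subunits, read 35.3 and 80.4 (uninjured), 602 and 303 (1 dpi) and 159 and 140.3 (5 dpi) among Foxj1-Olig2-tdT libraries, against 9.6 and 18.9, 351 and 339, and 147 and 93.9 among Foxj1-tdT libraries. Ticrr, which helps origins fire, read 9.2 and 7.7 (uninjured), 12.7 and 5.1 (1 dpi) and 103 and 95.6 (5 dpi) among Foxj1-Olig2-tdT libraries, against 8.4 and 15.4, 90.9 and 32.1, and 37.1 and 73.3 among Foxj1-tdT libraries. Gmnn was near 0 in uninjured Foxj1-tdT libraries and 1 of the uninjured Foxj1-Olig2-tdT libraries, and at least 185 after injury. Among all tested genes 5.93% rose at 1 dpi and 17.2% at 5 dpi in Foxj1-Olig2-tdT cells, with 2.16% and 14% falling, and 15.4% and 13.8% rose in Foxj1-tdT cells, with 12% and 9.21% falling. The 2 rises among the 15 other licensing and firing genes in Foxj1-tdT cells at each time were thus a share near that of all genes. So were the 2 rises among the 11 genes of chromatin replication in Foxj1-tdT cells at 5 dpi.

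The single-cell data show how the replication genes were spread over cells. The single-cell RNA matrix had 3500 cells, of which the authors' cell table kept 3285, under 6 library codes that no label ties to a sample, so no comparison of genotype or time was made. The codes held 337 to 992 kept cells with median depths of 2714 to 7397 UMIs, and 7 barcodes occurred under more than 1 code. Members took 787 CPM, UMIs scaled to the same total, in code 017 (95% exact Poisson interval 734 to 842), 777 in 018 (753 to 801) and 695 in 019 (657 to 735). They took 757 in 020 (720 to 796), 761 in 072 (742 to 780) and 918 in 073 (885 to 952). Among the kept cells code 073 stood highest and 019 lowest, an order that did not hold without the cells described next.

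Few cells held UMIs of genes of dividing cells. A UMI of both Mki67 and Top2a was found in 24 of the 3285 cells, with 0 of 362 cells in code 017, 4 of 895 in 018, 0 of 339 in 019, 7 of 337 in 020, 3 of 992 in 072 and 10 of 360 in 073. The 0 counts allow shares of up to 1.01 and 1.08% (exact binomial 95% interval) of cells with a UMI of both genes, which is no limit on dividing cells, since the median cell had 2714 UMIs in code 017 and 5090 in code 019. These 24 cells held 5250 CPM of the members (4980 to 5540) and the other 3261 cells 728 (716 to 739). Their median depths were 10443.5 and 5705 UMIs, no doublet caller was run, and the labels do not say whether doublets were removed. A median of 24 of the 39 genes were seen per cell in them, against 3 in the other cells. Without them code 073 held 722 CPM (692 to 752) and code 020 held 642 (607 to 678), against 918 and 757 with them, so that code 017, which had none of them, was then highest and code 020 lowest.

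Members differed widely in the ratio of their level in those 24 cells to that in the others. Tk1 had 172 CPM in the 24 cells and 0.422 CPM in the other cells, a ratio of 408 (197 to 947). Rrm2 had 752 CPM in the 24 cells and 12.2 CPM in the other cells, a ratio of 61.4 (50.8 to 74.1). Mcm5 had 127 CPM in the 24 cells and 2.34 CPM in the other cells, a ratio of 54.2 (34 to 85.5). Tk1 had 9 UMIs in all of the 3261 other cells. At the other end, Rpa1 had 108 CPM in the 24 cells and 80.9 CPM in the other cells, a ratio of 1.34 (0.895 to 1.93). Chaf1a had 67.3 CPM in the 24 cells and 44.3 CPM in the other cells, a ratio of 1.52 (0.896 to 2.41). Rfc2 had 213 CPM in the 24 cells and 117 CPM in the other cells, a ratio of 1.82 (1.38 to 2.37). For Rpa1 and Chaf1a the interval of the ratio included 1, and Gins4, Mcm4 and Rfc1 were below 3 as well. Over the 39 genes the ratio had a median of 15.1 and was above 10 in 25. In the bulk data 6 members were called higher in none of the 4 injury comparisons, and 4 of them (Rpa1, Chaf1a, Rfc1 and Gins4) were among the 6 genes with the lowest ratios, while Gins1 and Pola2 had ratios of 4.6 and 5.61. Orc1 was seen as 1 UMI in each set, a ratio of 79.8 with an interval of 1.02 to 6260. These ratios compare pooled cells of several libraries and cover counting error only. At least 5 ependymal markers were seen in 8 of the 24 cells, against 3037 of the other 3261. Codes 073 and 020 held 10 and 7 of the 24. Division, cell type and library can therefore not be told apart in the ratios.

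**Figure D5:**
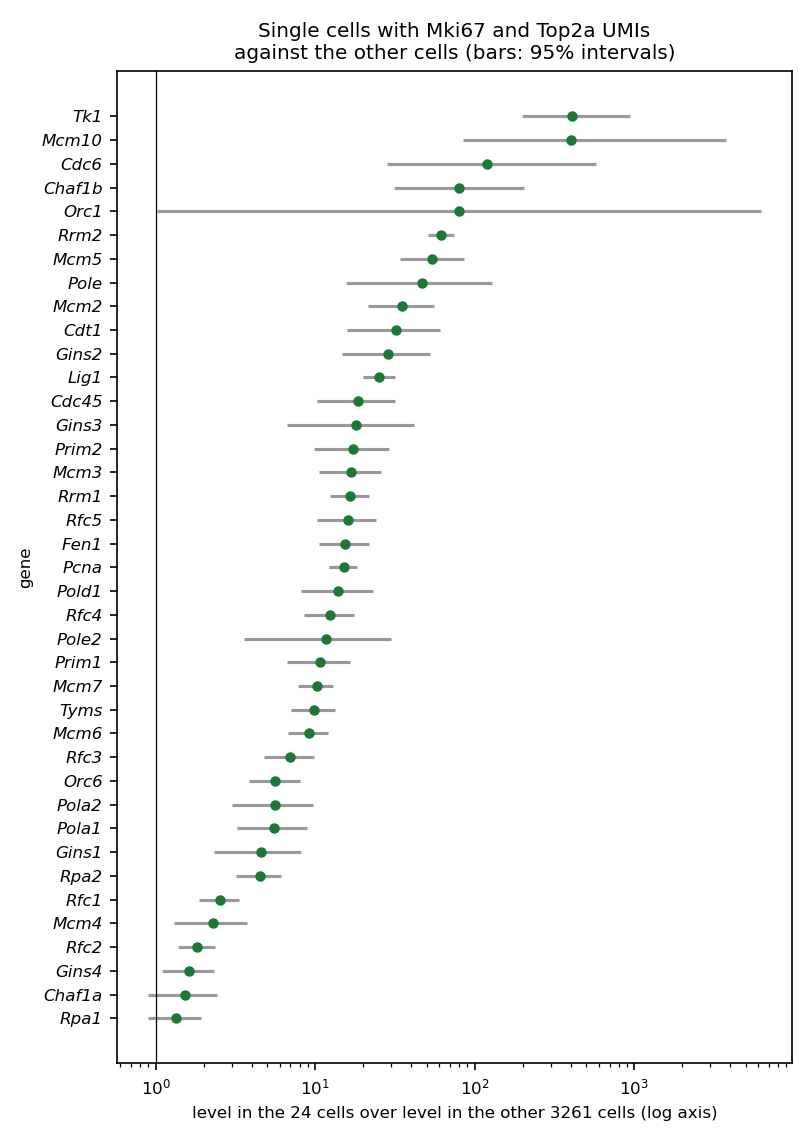
Ratio of the level (CPM) of each replication gene in the 24 single cells with UMIs of Mki67 and Top2a to its level in the other 3261 cells, on a log axis, with exact 95% intervals for counting error. The ratio was 408 for Tk1 at the top and 1.34 for Rpa1 at the bottom.

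Among cells without that pair of UMIs, the level of single members differed between cells with ependymal and with oligodendrocyte markers. Cells with at least 5 of 10 ependymal markers and fewer than 5 oligodendrocyte markers numbered 2999 and held 733 CPM of the members (721 to 745), and cells with at least 5 of 8 oligodendrocyte markers numbered 148 and held 634 (597 to 673). In all, 112 cells of code 073 and 29 of code 020 held at least 5 oligodendrocyte markers, and 38 of the 148 cells also held at least 5 ependymal markers. Chaf1a was at 48.7 CPM (45.6 to 51.9) in the ependymal-marker cells and at 9.55 (5.46 to 15.5) in the oligodendrocyte-marker cells. Rpa1 was at 86.7 (82.6 to 91) and 33.4 (25.3 to 43.4). Pcna was at 25.4 (23.2 to 27.8) and 71.7 (59.4 to 85.7). Among these cells Chaf1a and Rpa1 were higher in the ependymal-marker cells and Pcna in the oligodendrocyte-marker cells, by differences larger than counting error. Since codes 073 and 020 hold most of the oligodendrocyte-marker cells, the sets were also compared within those codes, a step added after the pooled values were seen. In code 073 (198 and 111 cells) Chaf1a was at 50 CPM (39.1 to 62.9) in ependymal-marker and 8.8 (4.55 to 15.4) in oligodendrocyte-marker cells, Rpa1 at 73.6 (60.2 to 89) and 34.5 (25.3 to 45.8), and Pcna at 29.2 (21 to 39.4) and 80.7 (66.3 to 97.2). In code 020 (268 and 29 cells) Chaf1a was at 44.8 (34.6 to 57.1) and 3.77 (0.0955 to 21), Rpa1 at 81.3 (67.3 to 97.4) and 18.9 (6.12 to 44), and Pcna at 15.2 (9.5 to 22.9) and 33.9 (15.5 to 64.4). Within each code the intervals of Chaf1a and Rpa1 did not overlap, and those of Pcna overlapped in code 020. By library code, Pcna ranged from 18.1 CPM (019) to 78.5 (073), Pola2 from 1.95 (020) to 22.9 (073) and Chaf1a from 28.3 (073) to 52.2 (017).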

How the data were processed

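Bulk RNA was analysed in 12 libraries, 2 for each of 6 groups of genotype and time. Each bulk value is a gene's signal as the authors normalised it between libraries, and the deposited table does not name the method; raw counts were not analysed here, so the depth behind a value is unknown. The submitters' processing notes name Bowtie2, SAMtools, deepTools, Cell Ranger, Cell Ranger ATAC and the build mm10. The single-cell files hold deposited counts: UMIs per gene and cell, and transposase cut sites per peak and cell. No column was left unmapped (0).

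From the deposited bulk values, 1 fit of 6 group means was made with limma 3.58.1 (R 4.3.3, trend) on log2(value + 1) for 15811 of 16301 genes, those reaching 10 in 2 or more libraries. P-values were adjusted by Benjamini-Hochberg within each of 12 contrasts, all of which were tested with 6 residual degrees of freedom. A fold change on this scale understates the change of low genes, and none is given where a whole group is listed at 0. Levels scaled to a common total of UMIs or cut sites (CPM) carry exact Poisson intervals, which cover counting error only, since the cells of a library are not replicates. The single-cell sums and the promoter search used Python 3.11.15, numpy 2.4.6, pandas 2.3.3 and scipy 1.17.1, and figures used matplotlib 3.10.9.

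The members, the other gene lists and the alternatives were chosen with earlier results of these data known. Values in every library are given for the 3 members of each role with the smallest p over the 6 groups (limma's moderated F test), the member with the largest, and any member called between genotypes, and in the other lists for up to 3 called genes each with the smallest such p; 1 gene that this rule names is not reported here. Alternatives were a pseudocount of 8, no filter, median-of-ratios and quantile normalization, a replicate block, the uninjured Foxj1-tdT pair as 1 library, and leaving out each library. Bulk ATAC (12 samples) was not analysed here.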

Additional observations from a re-analysis of the deposited data

Results flagged for a closer look

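For 13 genes the response to injury or time differed between the genotypes by limma's interaction test, given here as log2 differences, Foxj1-Olig2-tdT minus Foxj1-tdT. For the response at 5 dpi against no injury the difference was 4.26 for Mcm2, 4.2 for Mcm5, 1.41 for Mcm7, 4.01 for Gins2, 2.47 for Rfc3, 2.2 for Rrm1 and 2.63 for Chaf1a. It was -3.07 for Cdc45, and Gins3, which was listed at 0 in uninjured Foxj1-tdT cells, had an adjusted p of 0.00521. Over all tested genes 2.64% were called above 0 and 4.64% below 0 for this response. The 2 of 39 members below 0 were thus a share near that of all genes.

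At 1 dpi against no injury Cdc45 differed by -5.19 and Gins3 had an adjusted p of 0.00818. Between 5 and 1 dpi the difference was 1.73 for Mcm4, 3.27 for Mcm5, 2.34 for Mcm6 and 1.46 for Mcm7, subunits of the helicase. It was 1.51 for Pola2, 1.32 for Pcna and 2 for Rrm1. Of these 18 values, 5 passed under every alternative run: Cdc45 and Gins3 at 1 dpi, Mcm5 and Gins3 at 5 dpi against no injury, and Mcm5 between 5 and 1 dpi. All rest on 2 libraries a group. Over all tested genes 0.923% were called above 0 and 1.85% below 0 at 1 dpi against no injury. Between 5 and 1 dpi these shares were 3.04% and 5.27%.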

How the results depend on the processing

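Of 139 called values of the members over the 12 contrasts, 77 stayed past the threshold in all 18 alternatives, and of 2502 values under the alternatives 356 were no longer past it and 0 turned their direction. When the near-identical uninjured Foxj1-tdT libraries entered as 1, the number of members called fell to 2 of 4 between 5 and 1 dpi in Foxj1-Olig2-tdT cells, 2 of 6 between uninjured genotypes, 4 of 7 between genotypes at 5 dpi, 2 of 9 for the interaction at 5 dpi against no injury and 3 of 7 for the interaction at 5 against 1 dpi. Leaving out each library in turn, the number called ranged from 13 to 21 at 1 dpi and 22 to 31 at 5 dpi against no injury in Foxj1-Olig2-tdT cells, and from 22 to 30 and 11 to 20 in Foxj1-tdT cells. Between 5 and 1 dpi it ranged from 0 to 5 in Foxj1-Olig2-tdT cells and 5 to 19 in Foxj1-tdT cells. Between genotypes it ranged from 2 to 9 without injury, 0 to 1 at 1 dpi and 0 to 14 at 5 dpi. For the interactions it ranged from 2 to 6 at 1 dpi, 2 to 12 at 5 dpi and 2 to 15 between 5 and 1 dpi. A lone library is then assumed to vary like the other groups.

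Replicate numbers did not pair the samples: 15 correlations of same-numbered libraries' deviations ran from -0.03 to 0.022. With the replicate block, 28 and 16 members were called in Foxj1-tdT cells at 1 and 5 dpi, as without it, 22 and 28 in Foxj1-Olig2-tdT cells, 6 between genotypes at 5 dpi and 5 for the interaction at 5 against 1 dpi. With 2 libraries a group and an unknown depth, a difference that did not pass is not shown to be absent.

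In the single cells, thinning each cell to 2000 UMIs gave 655 (593 to 722), 709 (646 to 776) and 868 CPM (801 to 939) for codes 019, 020 and 073. These intervals include the values without thinning, 695, 757 and 918 CPM. All cells of the matrix gave 542 and 817 for codes 020 and 073, with the cells outside the authors' table included. Those outside cells held 316 CPM over all codes. The cause of these shifts was not tested.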

Other observations

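The 215 cells left out of the authors' cell table held 316 CPM of the replication genes (295 to 337), with a median of 12207 UMIs per cell, against 728 CPM (716 to 739) in the kept cells without UMIs of both Mki67 and Top2a. Chaf1a was at 1.8 CPM (0.583 to 4.19) in them and Rpa1 at 8.98 (5.81 to 13.3). Pcna was at 32.3 CPM (26 to 39.8), a level that overlaps the 30.2 CPM (27.9 to 32.7) of the kept cells. After thinning to 2000 UMIs, the kept cells showed a mean of 1.25 (code 019) to 1.54 (code 073) of the 39 genes, against 2.02 (code 017) to 5.14 (code 073) without thinning, and 64, 35, 27, 7, 0 and 0 cells of codes 017, 018, 019, 020, 072 and 073 were too shallow to be thinned.

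Of the 24 cells with UMIs of both Mki67 and Top2a, 8 held at least 5 ependymal markers and 1 at least 5 oligodendrocyte markers, and they held between 3 and 31 of the 39 replication genes.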
